A study of Mus musculus with 8 samples.

Results

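Collagen chains are modified, folded, trimmed and crosslinked by a small set of enzymes and chaperones. The 10 genes examined here cover those steps: the collagen chaperone gene Serpinh1, the prolyl 4-hydroxylase genes P4ha1, P4ha2 and P4ha3, the lysyl hydroxylase genes Plod1 and Plod2, the lysyl oxidase genes Lox, Loxl1 and Loxl2, and the procollagen protease gene Bmp1. They were chosen by symbol for these roles, and both they and the tests were set with earlier results of these data known. All 10 were found among the 49585 rows of the expression lists, and all 10 were among the 23498 whose mean reached 0.1 FPKM (fragments per kilobase of exon, scaled to the library total), and so entered the test. Polyadenylated RNA from whole pituitary was sequenced in 4 libraries from young mice (2 to 3 months old) and 4 libraries from old mice (18 to 24 months old). Both groups were wild-type C57BL/6 mice, kept specific pathogen free, with no treatment named in the labels, and by the methods blood had been washed out by perfusion. The labels do not say whether the 4 libraries of an age came from separate animals, so the p-values below measure the spread between these libraries, which may be technical in part.

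Procollagen is made in the endoplasmic reticulum. Prolyl 4-hydroxylases add hydroxyl groups to prolines, without which the triple helix melts at body temperature, lysyl hydroxylases do the same for lysines that later carry sugars or crosslinks, and the chaperone HSP47 holds the folded helix until it leaves for the Golgi. Outside the cell Bmp1 cuts off the carboxy-terminal propeptide, and lysyl oxidases oxidise lysines so that neighbouring collagen or elastin molecules become covalently joined. In the pituitary this machinery serves the connective tissue of the capsule, the walls of the dense capillary bed and the basement membranes between vessels and hormone cells.

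Recovered library totals ran from 15042321 to 20429604 fragments in the young and from 16098530 to 19272104 in the old libraries. At an adjusted p under 0.05 (limma, Benjamini-Hochberg over all genes), old pituitary had higher levels of 436 (1.86%) and lower levels of 111 (0.472%) of the 23498 genes. Under median-ratio scaling the split was 211 higher and 220 lower. Taken over all genes, log2 fold changes (old against young, of FPKM + 0.1) had a median of 0.15, so a gene with a log2 fold change of 0 lay below the middle of the distribution. The growth hormone gene Gh, the defining product of somatotrophs, had the high level that marks the pituitary, at 62320 ± 5846 FPKM in young and 24330 ± 3157 in old libraries (SD, n = 4 each).

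Promoter sequence is shown for P4ha1 and P4ha2, because the balance between their transcripts was the only one of the 4 ratios planned for these genes whose values did not overlap between ages, and because the core of the hypoxia response element stands in both. These are the 180 bases before the RefSeq start (GRCm38.p6, plus strand, 5′ to 3′), P4ha1 at chr10:59323116-59323295 and P4ha2 at chr11:54100744-54100923, with each ACGTG or GCGTG on either strand in capitals. The stretch of P4ha1 ends just before the annotated start of the gene, while that of P4ha2 lies inside the annotated gene, which starts farther upstream.
P4ha1: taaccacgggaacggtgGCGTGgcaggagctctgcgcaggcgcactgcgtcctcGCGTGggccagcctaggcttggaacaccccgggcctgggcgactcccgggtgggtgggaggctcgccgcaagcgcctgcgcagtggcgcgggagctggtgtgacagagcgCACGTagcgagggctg
P4ha2: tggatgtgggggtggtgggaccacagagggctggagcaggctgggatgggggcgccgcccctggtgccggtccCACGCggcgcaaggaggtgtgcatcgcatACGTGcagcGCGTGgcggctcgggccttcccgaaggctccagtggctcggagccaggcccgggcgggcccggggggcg
Both stretches hold 3 cores. The RefSeq table gave a window of 300 bases around the start for 5 of the 10 genes, Serpinh1, P4ha1, P4ha2, P4ha3 and Plod1. Searched on both strands, ACGTG was in 3 of these 5 windows (Serpinh1, P4ha1 and P4ha2) and in 19.6% of all 32851 windows of the table. GCGTG was in 3 of the 5 (P4ha1, P4ha2 and Plod1) against 32.4% of all, and GAANNTTC, a core of the heat shock element, was in 1 of the 5 (Plod1) against 7.86% of all. These matches describe the letters of the windows and nothing more.

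None of the 10 genes passed the test. At an adjusted p under 0.05, 0 of 10 were higher, beside 1.86% of all genes, and 0 of 10 were lower, beside 0.472%, with adjusted p-values from 0.1275 (Lox) to 0.986 (Plod2) in limma. Every old library lay above every young one in 0 of 10 genes, beside 13.4% of all genes, and below every young one in 1 of 10 (Lox), beside 2.06%. At an unadjusted p under 0.05, 2 of 10 were lower (Lox and Bmp1), beside 3.79% of all genes, and 0 of 10 were higher, beside 18.0%. The limma-voom test on recovered fragments also called 0 of 10, with a smallest adjusted p of 0.0552 and 2 genes at an unadjusted p under 0.05. On log2(FPKM + 0.1), the 95% interval of the difference lay wholly within a 2-fold change in either direction for 9 of the 10 genes. Lox was the exception, and Loxl2 (lower bound -0.96) and Bmp1 (-0.88) came nearest to that limit. Intervals under other pseudocounts or scalings were not set against it. The log2 fold change was below 0 in 8 of 10 genes, beside 30.0% of all genes, and the median over the 10 was -0.19, beside 0.15 over all genes. All 10 lay below the median of all genes tested. The sign of P4ha1 and of Loxl1 depended on the scaling: under median-ratio scaling, upper-quartile scaling and library sizes without hormone and rRNA repeat genes, 10 of 10 were below 0, with a median over the 10 from -0.33 to -0.31 and a median of all genes from 0.01 to 0.02.

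**Figure D1:**
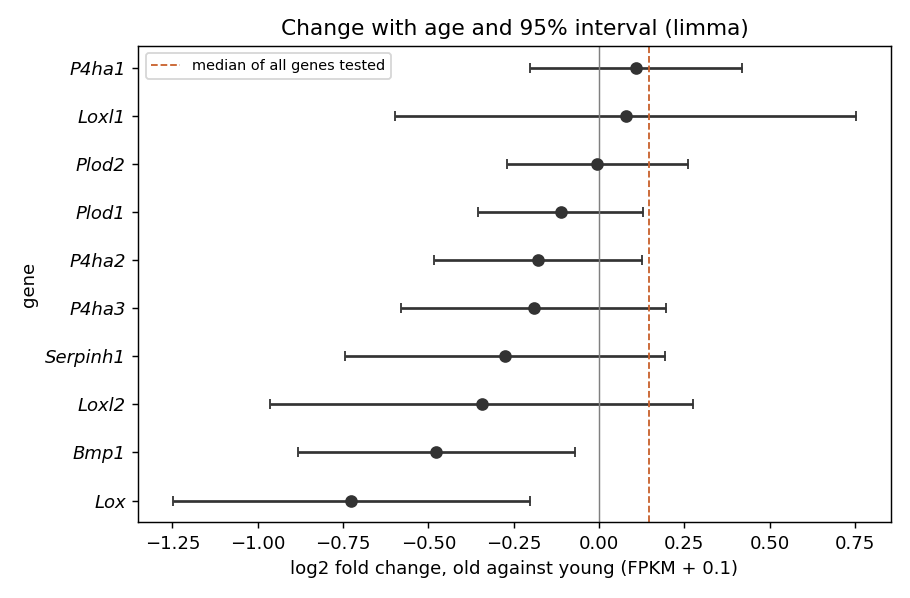
Log2 fold change of each of the 10 genes in old against young pituitary, with its 95% interval from limma (x axis, log2 of FPKM + 0.1, 4 libraries per age). The grey line marks 0 and the dashed line marks the median of all genes tested, 0.15, and each of the 10 points lies to the left of the dashed line.

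The levels, which FPKM gives per exon length, differed widely between the 10 genes. In young pituitary the order from the highest mean was Serpinh1 (33.4 ± 8.73 FPKM), P4ha1 (21.9 ± 2.58), Plod2 (11.5 ± 1.13), Loxl1 (10.9 ± 3.61), P4ha2 (5.11 ± 0.516), Plod1 (4.73 ± 0.224), Bmp1 (2.36 ± 0.251), Lox (1.26 ± 0.422), P4ha3 (0.841 ± 0.123) and Loxl2 (0.444 ± 0.106; SD, n = 4). The library ranges of 4 neighbouring pairs in this order overlapped: Serpinh1 with P4ha1, Plod2 with Loxl1, P4ha2 with Plod1, and Lox with P4ha3. Among old libraries the order was the same but for the last of these pairs, in which P4ha3 (0.73 ± 0.15 FPKM) stood above Lox (0.698 ± 0.118), and the same 4 pairs overlapped. Among the 23498 tested genes the mean level of Serpinh1 was at the 96.5th percentile, that of Bmp1 at the 50.9th and that of Loxl2 at the 22.3rd.

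**Figure D2:**
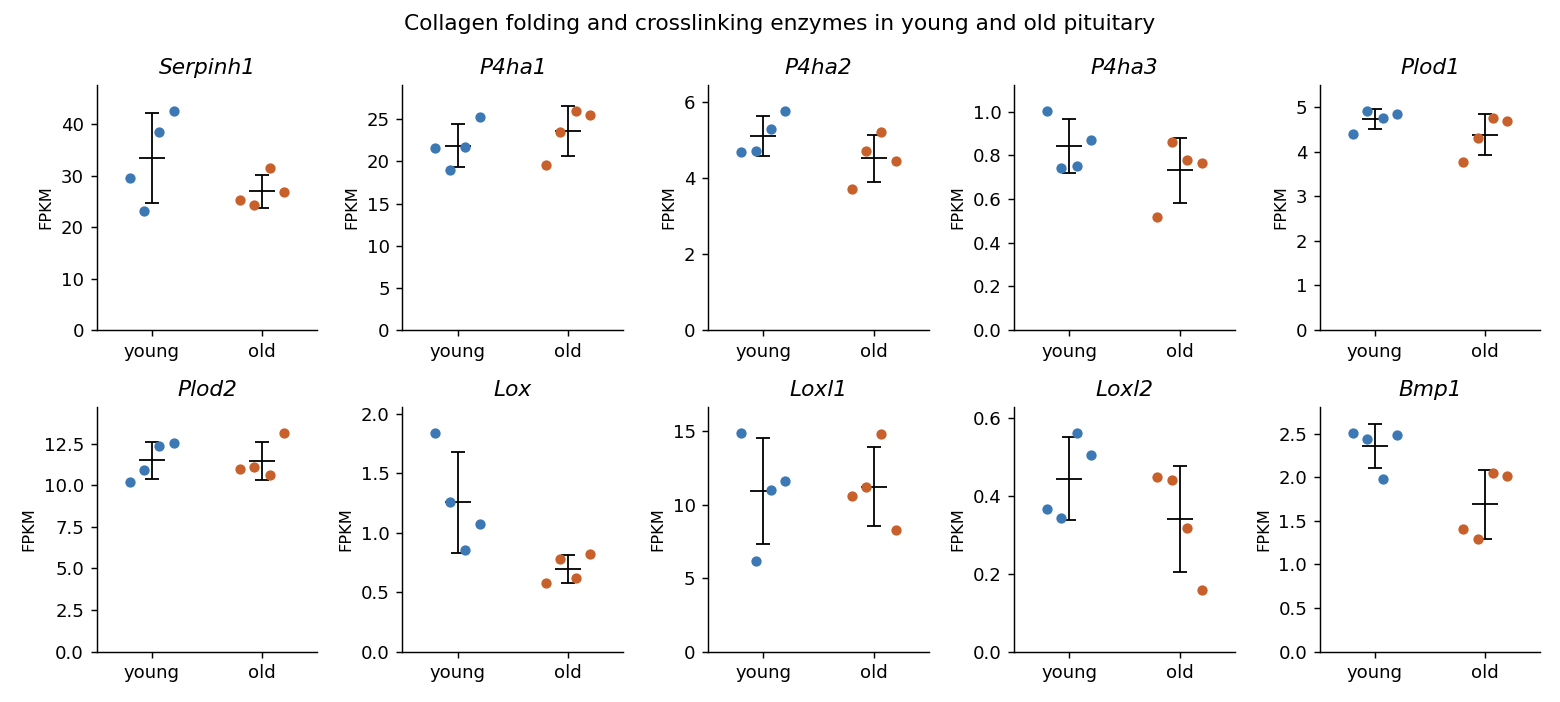
FPKM of each gene (y axis, starting at 0) in the 4 young and 4 old libraries (points), with the mean and SD (black bars). Lox is the only gene in which every old library lies below every young one, while the points of the other 9 genes overlap between ages.

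Serpinh1 encodes HSP47, a chaperone of the endoplasmic reticulum that binds the collagen triple helix, and lies at chr7:99345376-99353239 on the minus strand (GRCm38, as are all gene positions below). Its level in the young libraries was 29.5, 23.2, 38.5 and 42.6 FPKM (replicates 1 to 4). In the old libraries it was 25.2, 24.4, 31.5 and 26.9 FPKM. The groups overlapped, and the widest values were on the young side, where both the lowest and the highest of the 8 libraries were found. The log2 fold change was -0.28 (SE 0.20), with a 95% interval of the fold from 0.596 to 1.14 and a limma adjusted p of 0.461. Serpinh1 is a known target of heat shock factor, and heat shock genes were therefore read beside it. Of 11 heat shock genes tested, 0 passed in either direction and 10 had a log2 fold change below 0, with a median of -0.15. Hsf1, which encodes the factor itself, measured 8.26 ± 0.920 FPKM in young and 11.4 ± 1.32 in old libraries (adjusted p = 0.0996, limma). The co-chaperone gene Bag3 measured 19.4 ± 5.36 and 13.7 ± 4.53 FPKM, with overlapping libraries. The 12 general chaperones of the endoplasmic reticulum, which serve all secreted proteins, included 0 that passed and 1 below 0, around a median of 0.26. Pdia3, a disulfide isomerase that acts on glycoproteins, measured 188 ± 23.0 FPKM in young and 241 ± 8.20 in old libraries (adjusted p = 0.1217, limma).

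The prolyl 4-hydroxylase enzyme joins 2 catalytic alpha subunits, encoded by P4ha1, P4ha2 or P4ha3, with 2 beta subunits of protein disulfide isomerase, encoded by P4hb. P4ha1 (chr10:59323296-59373304, plus strand) measured 21.6, 19.0, 21.8 and 25.3 FPKM in the young libraries and 19.5, 23.5, 26.0 and 25.6 in the old ones. These ranges overlapped, and the log2 fold change was 0.11 (SE 0.13; fold 0.870 to 1.34; limma adjusted p = 0.664). P4ha2 (chr11:54100095-54131665, plus strand) measured 4.68, 4.72, 5.29 and 5.77 FPKM in young and 3.71, 4.72, 5.21 and 4.44 in old libraries. The 2 ranges overlapped here as well, with old replicate 1 the lowest of the 8 and young replicate 4 the highest, and the log2 fold change was -0.18 (SE 0.13; fold 0.715 to 1.09; limma adjusted p = 0.462). P4ha3 (chr7:100285520-100319699, plus strand), the least abundant alpha subunit, measured 1.00, 0.742, 0.749 and 0.872 FPKM in young and 0.515, 0.863, 0.778 and 0.766 in old libraries. It rested on 187 fragments in all young and 165 in all old libraries, and its log2 fold change was -0.19 (SE 0.17; fold 0.669 to 1.15; limma adjusted p = 0.542), and it was -0.05 without old replicate 1. The beta subunit gene P4hb, named here after its values were seen, stood far above all 3 at 161 ± 16.6 FPKM in young and 172 ± 7.22 in old libraries.

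Taken within each library, the ratio of P4ha1 to P4ha2 does not depend on the library total. It was 4.61, 4.02, 4.12 and 4.38 in the young and 5.26, 4.99, 4.98 and 5.75 in the old libraries. Every old library lay above every young one, with means of 4.28 ± 0.269 and 5.25 ± 0.363 (SD, n = 4 each). The log2 difference was 0.29 (SE 0.07), with a two-sided exact permutation p of 0.0286, the smallest that 4 against 4 libraries can give, and an adjusted p of 0.1143 over the 4 planned ratios, which did not pass. With any 1 library left out the log2 difference was between 0.25 and 0.33.

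P4ha1 and Plod2 are known targets of the hypoxia-inducible factors, and they are named as examples, not as a full list of such targets. Whether these factors act on P4ha1, Plod2, P4ha2, Lox or the other genes examined here was not tested. Of 14 hypoxia response genes tested, 0 passed the test, 4 had an unadjusted p under 0.05 on the higher side and 1 on the lower, and the median log2 fold change was 0.14, next to 0.15 for all genes. Ndrg1, a stress-induced gene, measured 3.76 ± 0.486 FPKM in young and 5.81 ± 0.649 in old libraries (adjusted p = 0.0557, limma), with every old library above every young one. Slc2a1, the glucose transporter GLUT1, measured 8.63 ± 0.593 and 6.70 ± 0.214 FPKM (adjusted p = 0.0778, limma), with every old library below every young one. Kdm3a, a histone demethylase, measured 2.34 ± 0.179 and 3.05 ± 0.174 FPKM, and Ankrd37 measured 2.15 ± 0.377 and 3.31 ± 0.676 FPKM. In Kdm3a and Ankrd37, too, every old library lay above every young one. Of all genes tested, 13.4% had every old library above every young one and 2.06% had every old library below. Slc2a1 passed the test, on the lower side, under median-ratio scaling, upper-quartile scaling and library sizes without hormone and rRNA repeat genes. Under these scalings the list median was from -0.01 to 0.01, beside a median of all genes from 0.01 to 0.02.

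Plod1 encodes lysyl hydroxylase 1, which acts on lysines within the triple helix, and Plod2 encodes lysyl hydroxylase 2, which acts on the telopeptides at the chain ends. Plod1 (chr4:147909753-147936767, minus strand) measured 4.40, 4.90, 4.75 and 4.84 FPKM in young and 3.76, 4.30, 4.76 and 4.69 in old libraries. It varied least among the young libraries of all 10 genes, with a coefficient of variation of 4.74%, and its log2 fold change was -0.11 (SE 0.10; fold 0.782 to 1.09; limma adjusted p = 0.560), and it was -0.04 without old replicate 1. Plod2 (chr9:92542223-92608428, plus strand) measured 10.2, 10.9, 12.3 and 12.5 FPKM in young and 11.0, 11.1, 10.6 and 13.1 in old libraries. The 2 means differed by less than either SD, at 11.5 ± 1.13 and 11.5 ± 1.15 FPKM, and the log2 fold change was -0.01 (SE 0.11; fold 0.83 to 1.2; limma adjusted p = 0.986). Plod2 shares 346 exon bases with Gm38391 on the other strand, and whether reads were counted by strand was not given in the sources used here, so reads there cannot be told apart. The ratio of Plod1 to Plod2 was 0.413 ± 0.0324 in young and 0.384 ± 0.0468 in old libraries, with a log2 difference of -0.11 (SE 0.10) and a two-sided exact permutation p of 0.3714 (adjusted p = 0.686 over the 4 ratios). Plod3, which encodes the third enzyme of the family, measured 7.27 ± 0.283 FPKM in young and 9.34 ± 1.30 in old libraries, with every old library above every young one and a limma adjusted p of 0.1395.

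Lox encodes lysyl oxidase, a copper enzyme secreted as an inactive precursor (chromosome 18, 52516067 to 52529867, minus strand). It measured 1.84, 1.26, 0.855 and 1.07 FPKM in the young libraries. The old libraries had 0.581, 0.776, 0.615 and 0.820 FPKM. Every old library lay below every young one, as in 2.06% of all genes tested, though the highest old value and the lowest young value were close. The log2 fold change was -0.73 (SE 0.23), with a 95% interval of the fold from 0.421 to 0.869, an unadjusted p of 0.0129 and an adjusted p of 0.1275 (limma), so Lox did not pass. These values rest on 421 fragments over all young and 240 over all old libraries. Lox shares 30 exon bases with an antisense gene, AC161119.1.

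Loxl1, whose product is best known for crosslinking elastin, had the highest level of the 3 oxidase genes in all 8 libraries (chr9:58287738-58313186, minus strand). It measured 14.9, 6.13, 11.0 and 11.6 FPKM in young and 10.6, 11.2, 14.8 and 8.25 in old libraries. The young libraries alone covered the whole range of the old ones, and the log2 fold change was 0.08 (SE 0.29; fold 0.661 to 1.69; limma adjusted p = 0.900). Loxl2 (chr14:69609068-69695834, plus strand), whose product crosslinks type IV collagen, measured 0.366, 0.344, 0.561 and 0.506 FPKM in young and 0.448, 0.440, 0.317 and 0.159 in old libraries. Its values overlapped, and old replicate 4 was the lowest of the 8. With 174 fragments in all young and 131 in all old libraries, the log2 fold change was -0.34 (SE 0.27; fold 0.513 to 1.21; limma adjusted p = 0.488), and it was -0.11 without old replicate 4. Loxl2 shares 301 exon bases with the antisense gene Gm27177.

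Bmp1 encodes the procollagen C-proteinase, which also activates the lysyl oxidase precursor (chr14:70474558-70520234, minus strand). It measured 2.51, 2.44, 1.98 and 2.49 FPKM in the young libraries. In the old libraries it measured 1.41, 1.30, 2.04 and 2.01 FPKM. The groups overlapped through young replicate 3 alone, which lay just under old replicates 3 and 4. The log2 fold change was -0.48 (SE 0.17), with a 95% interval of the fold from 0.542 to 0.952, an unadjusted p of 0.0268 and an adjusted p of 0.1726 (limma), so Bmp1 did not pass. Pcolce, whose product enhances this cleavage and which is named here after its values were seen, measured 3.85 ± 0.998 FPKM in young and 2.67 ± 0.429 in old libraries (adjusted p = 0.259, limma). Of 11 further substrates of Bmp1 tested, 0 passed the test and 10 had a log2 fold change below 0, with a median of -0.20. Tgfbi, a matrix protein, was the exception at 1.77 ± 0.551 FPKM in young and 3.96 ± 0.746 in old libraries (adjusted p = 0.0585, limma), while Thbs1, a secreted adhesion glycoprotein, measured 3.27 ± 0.951 and 1.47 ± 0.860 FPKM.

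The collagens on which these enzymes act did include genes that passed the test. Of 11 fibril collagen genes, 2 fell and 0 rose, and the list median was -0.47. Col1a1, the major chain of type I collagen, fell from 3.24 ± 0.536 to 1.04 ± 0.180 FPKM (log2 fold change -1.55, SE 0.16, limma adjusted p = 0.0107). Col3a1, the chain of type III collagen, fell from 2.55 ± 0.474 to 0.784 ± 0.205 FPKM (log2 fold change -1.59, SE 0.21, limma adjusted p = 0.0179). Col1a2, the partner chain of Col1a1, was far more abundant and spanned 48.0 to 61.5 FPKM among young libraries and 34.7 to 62.8 among old ones, which overlap. Among 8 basement membrane collagen genes, 3 fell and 0 rose, with a median of -0.71. Col4a1 fell from 17.6 ± 2.6 to 9.81 ± 1.34 FPKM (adjusted p = 0.0345, limma) and Col4a2 from 11.7 ± 2.09 to 6.02 ± 1.16 (adjusted p = 0.0455). Col4a3 fell from 0.895 ± 0.0320 to 0.526 ± 0.0864 FPKM (adjusted p = 0.0373). Of 10 elastic fibre genes, which hold the other substrates of lysyl oxidases, 1 rose and 0 fell, with a median of -0.32. Emilin1, a glycoprotein of elastic fibres, rose from 4.40 ± 1.14 to 10.5 ± 2.11 FPKM (adjusted p = 0.0396, limma) but did not pass under the 3 other scalings, where its adjusted p was 0.0666 to 0.0743. Eln, which encodes elastin, measured 0.529 ± 0.158 and 0.158 ± 0.109 FPKM, with every old library below every young one and a limma adjusted p of 0.0705. Ltbp4, a matrix protein that binds latent TGF-beta, measured 11.1 ± 1.49 and 8.39 ± 0.747 FPKM, and under median-ratio and upper-quartile scaling it was the only gene of this list to pass, on the lower side. Col5a1 among the fibril collagens and Col15a1 among the basement membrane collagens also passed on the lower side under the 3 other scalings. The calls of Col4a1, Col4a2 and Col4a3 were lost when any 1 of the 8 libraries was left out (adjusted p 0.0523 to 0.1066), that of Col3a1 without young replicate 1 (0.0506), young replicate 3 (0.0579) or old replicate 1 (0.0525), while Col1a1 passed in all 8 of these fits.

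Of 26 other genes of collagen assembly and uptake tested, 2 rose and 0 fell, and the median log2 fold change was 0.19. Mrc2, which encodes Endo180, a receptor that takes up collagen for degradation, rose from 2.38 ± 0.182 to 7.68 ± 1.48 FPKM (log2 fold change 1.63, SE 0.15, limma adjusted p = 0.00765). P3h4, which encodes a partner of the prolyl 3-hydroxylase and lysyl hydroxylase complexes, rose from 10.2 ± 0.415 to 14.8 ± 1.60 FPKM (log2 fold change 0.54, limma adjusted p = 0.0482), but its adjusted p was 0.1257 to 0.1495 under the 3 other scalings. P3h2, a prolyl 3-hydroxylase, measured 0.604 ± 0.0895 and 0.846 ± 0.107 FPKM and did not pass. Under those scalings the list median lay between 0.04 and 0.06.

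**Figure D3:**
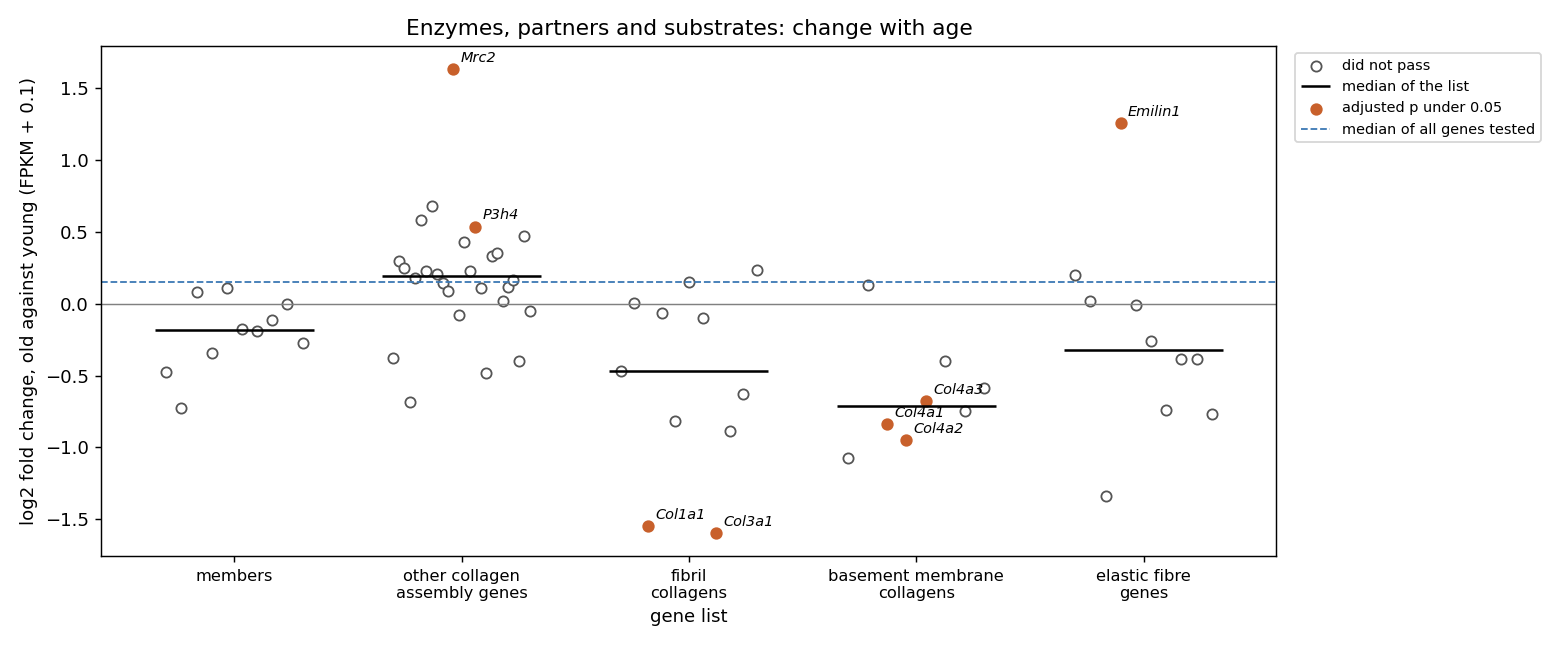
Log2 fold change in old against young pituitary (y axis, log2 of FPKM + 0.1) for the 10 genes and for 4 lists of partners and substrates, 1 point per tested gene, with genes that passed the test filled and named. Black bars are list medians and the dashed line is the median of all genes tested, 0.15. The 10 genes form a narrow band without a filled point, while filled points lie below 0 among the collagens.

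Among the 4 planned ratios, the chaperone and the oxidases were each set against fibril collagen transcripts within each library. Serpinh1 over the sum of Col1a1, Col1a2 and Col3a1 was 0.563 ± 0.174 in young and 0.514 ± 0.127 in old libraries, a log2 difference of -0.11 (SE 0.28; two-sided exact permutation p = 0.686, adjusted p = 0.686 over the 4 ratios). Lox, Loxl1 and Loxl2 together over the same sum were 0.214 ± 0.0802 and 0.235 ± 0.0731, a log2 difference of 0.15 (SE 0.38; two-sided exact permutation p = 0.657, adjusted p = 0.686). Col1a2 made up 88.7 to 97.7% of the sum, so these ratios are close to ratios with Col1a2 alone. The denominators were therefore changed after the data had been seen. Over Col1a1 and Col3a1 alone, Serpinh1 was 4.72, 5.23, 5.91 and 7.16 in young and 14.4, 10.4, 18.6 and 18.0 in old libraries. Every old ratio lay above every young one, with a log2 difference of 1.39 (SE 0.23; two-sided exact permutation p = 0.0286, the smallest possible, adjusted p = 0.0571 over all 8 ratios run). The summed oxidases over Col1a1 and Col3a1 were 2.73, 1.74, 1.90 and 2.22 in young and 6.63, 5.29, 9.27 and 6.17 in old libraries, a log2 difference of 1.66 (SE 0.22) with the same exact permutation p and adjusted p. Over Col4a1 and Col4a2 the log2 difference was 0.61 (SE 0.24; exact permutation p = 0.0571, adjusted p = 0.0914) for Serpinh1 and 0.88 (SE 0.29; exact permutation p = 0.0286, adjusted p = 0.0571) for the oxidases. These denominators were picked among genes already known to be lower in the old libraries, so the ratios restate that difference. The numerators' own values overlapped (Serpinh1) or were dominated by Loxl1. Neither the p-values of these added ratios nor the adjustment over all 8 ratios account for that choice. Over all 8 ratios the planned ratio of P4ha1 to P4ha2 also had an adjusted p of 0.0571 (exact permutation).

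**Figure D4:**
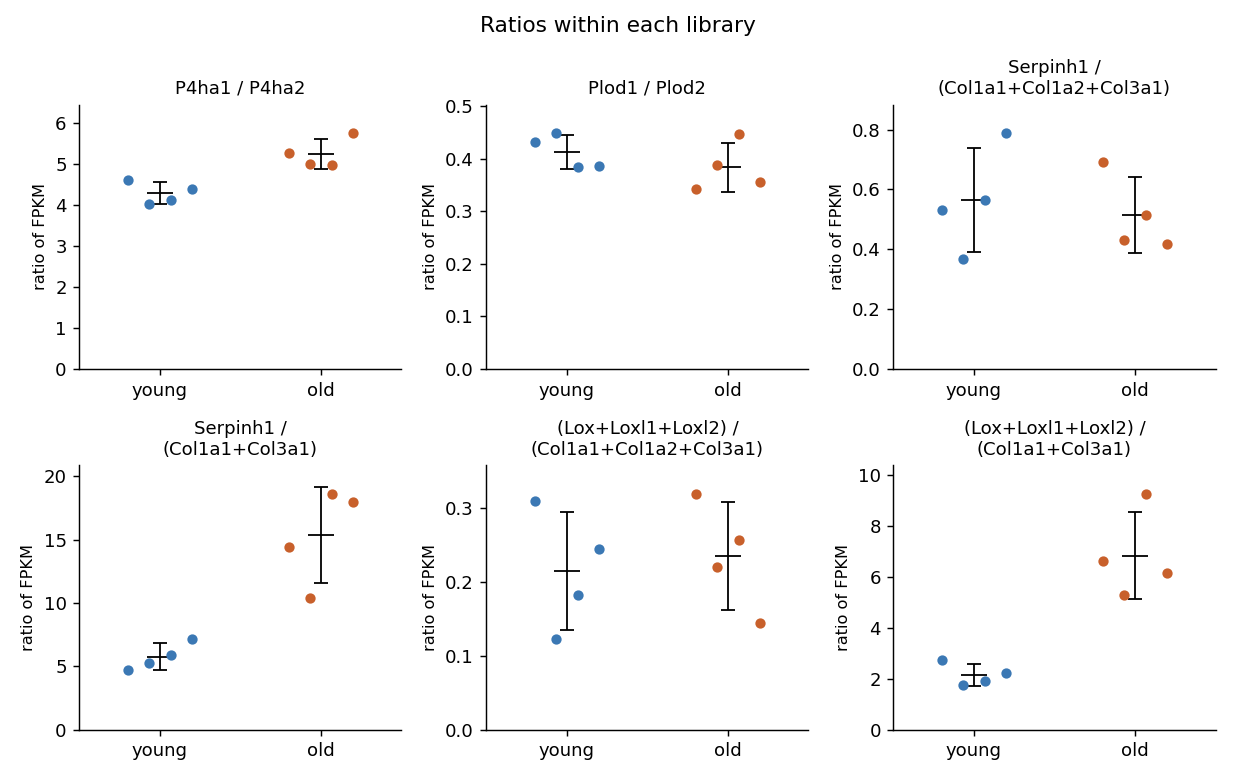
Ratios of FPKM within each library (y axes, starting at 0) for the 4 young and 4 old libraries (points), with mean and SD (black bars). P4ha1 over P4ha2 does not overlap between ages. The ratios of Serpinh1 and of the lysyl oxidases to collagen overlap over Col1a1, Col1a2 and Col3a1. They do not overlap over Col1a1 and Col3a1 alone, a denominator picked after both genes were known to be lower in the old libraries.

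In bulk tissue, fewer cells of a type and less RNA per cell cannot be told apart. Markers of fibroblasts and of other cell types were therefore read beside the 10 genes. Fibroblast markers, 10 tested, summed to 78.6 to 89.7 FPKM in young and 57.5 to 90.7 in old libraries, with 0 higher and 2 lower, and those 2 were Col1a1 and Col3a1 again. Col1a2 made up 60.4 to 75.0% of this sum. The 8 markers of the list that are not collagens were summed after the data had been seen. They reached 18.3 to 24.6 FPKM in young and 18.2 to 26.3 in old libraries, which overlap. Most of that came from Gsn (12.25 ± 1.56 FPKM in young, 13.8 ± 1.77 in old) and Dcn (7.40 ± 1.14 and 6.55 ± 1.78). None of the fibroblast markers was at 0 in all libraries. Pdgfra, the receptor that marks fibroblasts, measured 0.732 ± 0.132 and 0.406 ± 0.0883 FPKM, with every old library below every young one (adjusted p = 0.0758, limma). Pericyte and smooth muscle markers, 9 tested, summed to 23.9 to 35.5 and 21.2 to 43.4 FPKM with 0 passing, and 10 endothelial markers summed to 78.1 to 108 and 82.7 to 112 FPKM with 0 passing. Macrophage markers stood apart, with 3 of 9 higher (C1qb, Fcgr3 and Lyz2) and 0 lower, but only C1qb passed under the 3 other scalings. The 9 markers summed to 31.9 to 54.2 FPKM in young and 71.1 to 93.0 in old libraries. Pituitary stem cell markers, 8 tested with 0 passing, summed to 66.4 to 102 and 61.8 to 88.2 FPKM, but Cdh26 passed on the lower side under the 3 other scalings and Sox2 under 2 of them. The part of these cell types in the levels of the 10 genes was not tested.

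Markers of tissue and blood that could come along at dissection were read in the same way. Meningeal markers, 5 of 7 tested with 0 passing, summed to 2.92 to 6.72 FPKM in young and 5.87 to 7.96 in old libraries. Cartilage and bone markers, 3 of 8 tested with 0 passing, summed to 0.715 to 1.07 and 1.05 to 1.80 FPKM, with Matn3 and Ibsp at 0 throughout. Posterior lobe and glial markers, 5 of 8 tested with 1 higher (Mbp) and 0 lower, summed to 5.53 to 6.31 and 7.88 to 14.2 FPKM. Mbp did not pass under the 3 other scalings, where its adjusted p was 0.1118 to 0.1475 (limma). Blood markers, 5 tested with 0 passing, summed to between 13 and 110 FPKM in young and between 15.9 and 124 in old libraries. Their part in the levels of the 10 genes was not tested.

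TGF-beta is a known inducer of Lox and Serpinh1 in fibroblasts. Of 11 TGF-beta ligands, receptors and response genes tested, 0 passed and the median log2 fold change was -0.01. Tgfb2 measured 0.762 ± 0.0844 FPKM in young and 0.495 ± 0.0711 in old libraries, with every old library below every young one (adjusted p = 0.0690, limma), and it passed under the 3 other scalings. Tgfb1 measured 0.950 ± 0.135 and 1.20 ± 0.129 FPKM (adjusted p = 0.2123, limma), with overlapping libraries.

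The mean pattern of the 10 genes, which not all of them shared, was followed across libraries, once the mean of each age had been removed. Among 14581 other genes whose mean reached 1 FPKM, the 5 whose values ran most like the mean of the standardised 10 genes over the 8 libraries were Rab2b, Gm43766, Mir6395, Lime1 and Rab11fip3, with correlations from 0.987 to 0.994. With 8 libraries and so many genes compared, correlations of this size are a description of these libraries. Within the 10, P4ha1 lay closest to that mean, of which it is a part, with a correlation of 0.99, and Lox and Loxl2 lay farthest from it, at 0.05 and -0.16.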

How the data were processed

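Libraries were grouped by age from the titles in the labels. The authors deposited FPKM values, 1 list per library. By the methods and the submitters' processing notes, reads were aligned with STAR 2.6.1a to GRCm38, counted per gene with featureCounts and turned into FPKM with edgeR 3.28.1. No annotation release or strand setting is given in the sources used here. Lists of 49585 rows were read by symbol, and all 10 genes stand on 1 row each.

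The test was limma 3.58.1 (R 4.3.3) on log2(FPKM + 0.1) for the 23498 genes whose mean reached 0.1 FPKM, with mean-variance trend and robust options off, 4 old against 4 young libraries without covariates, and Benjamini-Hochberg adjustment over all of them. A fold change on this scale understates that of low genes. Calls have an adjusted p under 0.05. Ratios within a library were compared by two-sided exact permutation tests over the 70 splits of 8 libraries. Fragments were recovered from the FPKM with exon lengths of GENCODE M21, which made between 91.1 and 91.8% of the low values in a library whole within 0.01 of a fragment. For Lox (4810 bases) and Bmp1 (3757 bases) the length was fitted, as the smallest that made all 8 values whole within 0.01. Totals ran from 15042321 to 20429604 fragments, so 3 fragments are worth 0.147 to 0.199 CPM. Counting error is not all of the error. No 2 libraries of an age agreed within sampling noise. The limma script was tested on simulated data. Promoter windows came from RefSeq (GRCm38.p6). Scripts ran in Python 3.11.15 (pandas 2.3.3, scipy 1.17.1, numpy 2.4.6, matplotlib 3.10.9).

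The 10 genes, the 19 gene lists and the tests were chosen with earlier results of these data known. Named are the 10 genes, up to 4 genes of each list with the smallest adjusted p, and the 5 genes most like the 10 across libraries. Outside this rule, Col1a2 is named as part of 2 planned ratios, and P4hb, Pcolce, Gsn and Dcn after their values were seen. Alternatives were another pseudocount, filter, scaling or test, a replicate block, other denominators, and leaving out each library.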

Additional observations from a re-analysis of the deposited data

Results flagged for a closer look

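In Bmp1, young replicate 3 lay apart from the other 3 young libraries, at 1.98 FPKM against 2.44 to 2.51, with a gap of 0.875 of the range of its group. It was the only such value in 28 groups of 4 libraries examined (the 10 genes and the 4 ratios, each in both ages), and chance gives about 1 in 20. Without that library the log2 fold change of Bmp1 was -0.555 (limma adjusted p = 0.2191).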

How the results depend on the processing

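None of the 10 genes passed the test under any of the 18 alternatives, and Serpinh1, P4ha2, P4ha3, Plod1, Lox, Loxl2 and Bmp1 kept a log2 fold change below 0 in each that could be fitted. Of 177 fits of single genes, 13 turned the sign. Under median-ratio scaling, upper-quartile scaling and library sizes without hormone and rRNA repeat genes, P4ha1 was at -0.0413, -0.039 and -0.0247 and Loxl1 at -0.0714, -0.0691 and -0.0549. With 1 library left out, Plod2 ranged from -0.0729 to 0.0369 and was above 0 in 5 fits (0.0305 and 0.0369 without young replicates 3 and 4, and 0.0132, 0.0086 and 0.0292 without old replicates 1, 2 and 3), and Loxl1 ranged from -0.1717 (without young replicate 2) to 0.25, with -0.0632 without old replicate 3. The log2 fold change of Lox was -0.39 with a pseudocount of 1 FPKM and -0.88 without young replicate 3. With 1 library left out, the others ranged from -0.44 to -0.15 (Serpinh1), 0.04 to 0.20 (P4ha1), -0.25 to -0.09 (P4ha2), -0.27 to -0.05 (P4ha3), -0.15 to -0.04 (Plod1), -0.47 to -0.11 (Loxl2) and -0.57 to -0.37 (Bmp1).

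Over all genes, 436 higher and 111 lower became 689 higher with a pseudocount of 1 FPKM, 263 higher without a filter, 796 higher at a mean of at least 1 FPKM and 705 higher with a mean-variance trend. They became 211 higher and 220 lower under median-ratio scaling, 213 and 217 under upper-quartile scaling, 212 and 189 without hormone and rRNA repeat genes, and 1051 and 272 with limma-voom. Leaving out 1 library gave 64 to 327 higher and 21 to 163 lower, and for these counts the cause was not tested. Of the genes named as passing, Mrc2, Col1a1 and Gh passed in 17 of 18 alternatives, Col3a1 in 14, C1qb in 12, Col4a1 in 9, Col4a2 in 7, Col4a3 and Emilin1 in 6, P3h4 and Fcgr3 in 5, and Lyz2 and Mbp in 4 (of 17 for Col4a3, Lyz2 and Mbp), with the same direction in each.

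With the replicate block, 4 genes were higher and 0 lower by limma's adjusted p (3465 and 908 at an unadjusted p under 0.05), and the P4ha1 to P4ha2 ratio kept its log2 difference of 0.2928 with an exact sign-flip p of 0.125, the smallest that 4 pairs can give. Libraries of the same number did not deviate together (correlations -0.0883 to 0.0572). Whether they share more than a number is not said in the labels and was not tested. With 1 library left out that ratio was 0.2475 to 0.3295, with an exact permutation p of 0.0571, the smallest that 3 against 4 can give. The log2 difference of Serpinh1 to fibril collagen was -0.3008 to 0.0677 with 1 library left out (turned without young replicate 4), 0.0774 with Col4a1 and Col4a2 added to the sum, and 1.3936 and 0.6116 over the other 2 denominators. That of the oxidases was -0.088 (without young replicate 2) to 0.3714 with 1 library left out, -0.0121 without old replicate 1, and 1.66 and 0.878 over those denominators. Depth limits P4ha3, Lox and Loxl2, which rest on 131 to 421 fragments per age and were not fitted at a mean of at least 1 FPKM.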

Other observations

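The chains of type I collagen stood at unlike levels. Col1a2 measured 49.1, 58.9, 61.5 and 48.0 FPKM in the young and 34.7, 54.3, 59.6 and 62.8 in the old libraries, and Col1a1 measured 3.27, 2.47, 3.63 and 3.58 in the young and 0.937, 1.31, 0.965 and 0.950 in the old ones. Each value of both genes corresponds to a whole number of fragments at the annotated exon length, within 0.05 of a fragment, from 99 for Col1a1 in old replicate 1 to 15612 for Col1a2 in young replicate 3. The chains of type V collagen, a minor partner in fibrils, did not pass the main test, with Col5a1 at 0.778 ± 0.219 FPKM in young and 0.368 ± 0.0658 in old libraries (adjusted p = 0.0667, limma) and Col5a2 at 0.354 ± 0.0414 and 0.196 ± 0.0515 (adjusted p = 0.0653). Col15a1, a basement membrane collagen, measured 3.88 ± 1.20 and 1.72 ± 0.0944 FPKM (adjusted p = 0.0564, limma). Col5a1 and Col15a1, unlike Col5a2, passed under median-ratio scaling, upper-quartile scaling and library sizes without hormone and rRNA repeat genes. In Col5a1, Col5a2 and Col15a1 every old library lay below every young one.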
